A study of Mus musculus with 17 samples.

Results

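The mitochondrial genome is a small circle of DNA inside mitochondria, separate from the chromosomes of the nucleus. Its genes were examined here as the set of all genes whose symbol starts with mt-. This gave 37 of the 43629 genes in the count table, namely 13 protein-coding genes (mRNA), 2 ribosomal RNA (rRNA) genes and 22 transfer RNA (tRNA) genes. Of the 37, 31 had at least 1 read count in the libraries used, and 18 passed the filter on low counts and entered the tests: the 13 mRNAs, both rRNAs, and mt-Tp, mt-Tc and mt-Tn. The remaining 19 tRNA genes were too low to test and are described by their counts.

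The data are total RNA sequencing of 17 mouse libraries, built around ID8, a tumour cell line that the labels describe as mouse ovarian surface epithelium. ID8 cells were injected to form tumours, and no drug is named in the labels. The samples were subcutaneous tumours (n = 2, numbered 2 and 3, placed on the scruff by the labels and on the flanks by the protocol), cells of peritoneal ascites fluid from a second tap (n = 3) and a first tap (n = 3), solid tumours on the intestine (n = 3), orthotopic tumours grown in the ovarian bursa (n = 3), the ID8 line in culture (n = 1), and healthy C57BL6 ovary (n = 1) and intestine (n = 1). The ascites and the tumours on the intestine are described as having spread from orthotopic tumours, and the third tap named in the protocol was not analysed here. Ages, the strain of the tumour hosts and which samples share an animal are not given in the sources used here, so p-values measure only the spread between these samples.

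Mitochondrial DNA is transcribed from both strands into long precursors, and the tRNAs that lie between the other genes are cut out of them. The heavy-strand precursor carries both rRNAs, most tRNAs and all mRNAs except mt-Nd6, which is read from the light strand together with a minority of the tRNAs. The proteins are all core subunits of oxidative phosphorylation: the mt-Nd genes encode subunits of complex I (NADH dehydrogenase), mt-Cytb the cytochrome b of complex III, mt-Co1, mt-Co2 and mt-Co3 the catalytic core of complex IV (cytochrome c oxidase), and mt-Atp6 and mt-Atp8 subunits of the ATP synthase. All other subunits, and every protein that copies, transcribes or translates this genome, come from nuclear genes.

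Fragments of the mitochondrial genome have also been copied into nuclear chromosomes, where they are annotated as unprocessed pseudogenes, and a read from such a stretch can be assigned to either place. The following pairs are printed because their counts are described below. They are the first 90 bases of mt-Atp6 and of mt-Nd3 beside the same stretch of their copies on chromosome 1, Gm10925 and Gm28438, taken 5′ to 3′ from the GENCODE transcripts of the GRCm38 build. Capitals mark bases that differ.
mt-Atp6: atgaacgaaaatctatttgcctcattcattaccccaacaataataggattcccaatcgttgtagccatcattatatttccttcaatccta
Gm10925: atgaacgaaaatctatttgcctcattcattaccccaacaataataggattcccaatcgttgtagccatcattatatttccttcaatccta
mt-Nd3: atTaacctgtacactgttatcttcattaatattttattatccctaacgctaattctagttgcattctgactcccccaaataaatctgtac
Gm28438: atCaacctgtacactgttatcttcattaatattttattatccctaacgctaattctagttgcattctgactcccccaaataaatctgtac
No base differed between mt-Atp6 and Gm10925 over the 678 bases they share. The only difference between mt-Nd3 and Gm28438 over 345 aligned bases is T3C, counted from 1 at the first base printed and with the mitochondrial base first.

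Library totals ran from 12031221 to 38902048 counts, with a median of 27342134. Subcutaneous tumour 3, first tap 3 and second tap 1 stood apart in how many genes had a count, at 33393, 32846 and 32775, against 21157 to 26838 in the other 14 libraries. Results that rest on these 3 libraries are given with their own values below. The tissue labels were checked against markers summed in CPM (counts scaled to the same library total, in parts per 1000000). For markers, here and below, that total was multiplied by its TMM factor. TMM (trimmed mean of M values) is a scaling that matches libraries on the bulk of their genes. The 9 intestinal epithelium markers summed to 9575 to 25611 CPM in the tumours on the intestine and to 25266 CPM in healthy intestine, against 5.52 to 10.9 CPM in orthotopic tumours. The 9 macrophage markers summed to 2611 to 4798 CPM in the second tap and 1445 to 9586 CPM in the first, against 283 to 451 CPM in orthotopic tumours. The 7 granulosa and steroidogenic markers were at 2993 CPM in healthy ovary. All of these are bulk samples, in which fewer cells of a type and less RNA per cell cannot be told apart.

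Mitochondrial transcripts took their highest share of all counts in the subcutaneous tumours and their lowest in ascites. They made up 14.002% and 10.7% of counts in subcutaneous tumours 2 and 3. In the second tap they made up 6.07%, 6.54% and 3.15%, and in the first tap 5.69%, 2.27% and 4.18%. The tumours on the intestine had 8.30%, 6.95% and 6.28%, and the orthotopic tumours 6.99%, 6.37% and 6.93%. Group means were 12.3% ± 2.37 in subcutaneous tumours (SD, n = 2), 5.25% ± 1.83 in the second tap, 4.05% ± 1.72 in the first tap, 7.18% ± 1.03 on the intestine and 6.76% ± 0.340 in orthotopic tumours (SD, n = 3 each). Both subcutaneous values lay above every other library, and 5 of the 6 ascites values lay below every orthotopic value, the exception being second tap 2. The tumours on the intestine and the orthotopic tumours overlapped.

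Among the single libraries, the ID8 line had 6.03% (95% Wilson interval 6.02 to 6.04), healthy ovary 7.42% (7.41 to 7.43) and healthy intestine 7.70% (7.69 to 7.71). These intervals describe counting error alone, as no molecular identifiers are mentioned in the labels, and not the spread between cultures or animals. In order of the group means and single values, subcutaneous tumours came first, then healthy intestine, healthy ovary, tumours on the intestine, orthotopic tumours, the ID8 line, the second tap and the first tap. The step from healthy intestine up to the subcutaneous tumours exceeded the SD of that group, and the step from the line up to the orthotopic tumours exceeded the orthotopic SD of 0.340. The steps between the tumours on the intestine and their neighbours, between the line and the second tap, and between the taps were smaller than the largest SD beside them. Healthy intestine and the line are single libraries, so their own spread is in none of these SDs. With totals multiplied by their TMM factors, the subcutaneous mean was 11.3% ± 4.83 (SD, n = 2) and healthy intestine 10.0%. The orthotopic mean was then 6.34% ± 0.647 (SD, n = 3) and the line 6.21%. On that scale the steps from healthy intestine and from the line did not exceed the SD.

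The share depends on what the rest of the library holds. With each total multiplied by its TMM factor, subcutaneous tumour 2 stayed the highest at 14.7%. Subcutaneous tumour 3 came down to 7.85%, below the 10.48% and 9.92% of tumours on the intestine 1 and 2 and the 10.0% of healthy intestine. The orthotopic tumours stood at 7.05%, 5.79% and 6.18% on this scale. The second tap stood at 5.43%, 7.27% and 2.86%, and the first tap at 5.90%, 2.11% and 3.92%. Second tap 2 thus lay above all orthotopic tumours, and first tap 1 above orthotopic tumour 2. Both subcutaneous tumours were above all other libraries in raw share, and after scaling only tumour 2 was. The TMM factors were 0.955 for subcutaneous tumour 2 and 1.37 for subcutaneous tumour 3, the largest of all libraries.

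**Figure D1:**
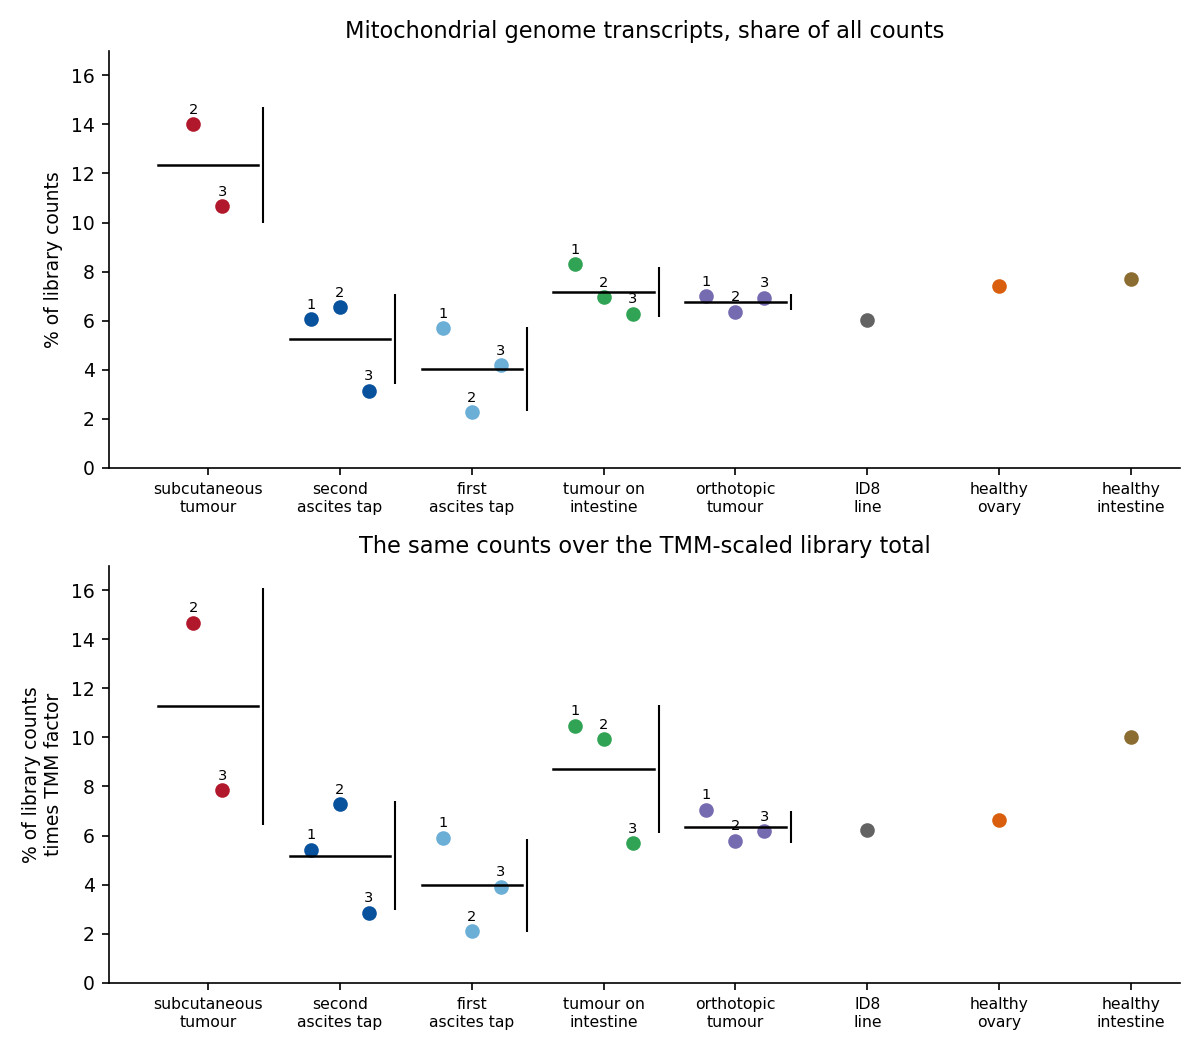
Counts in mt- genes as a percentage of library counts (top) and of library counts times the TMM factor (bottom), by group; points are libraries with their replicate numbers, horizontal lines are group means and vertical lines 1 SD. Subcutaneous tumour 2 is highest in both panels, at 14.002% and 14.7%, while subcutaneous tumour 3 is at 10.7% in the top panel and 7.85% in the bottom one.

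The subcutaneous pair also differed in markers of host tissue. The 9 adipocyte markers summed to 9451 CPM in subcutaneous tumour 2 and 429 CPM in subcutaneous tumour 3, against 847 to 1307 CPM in orthotopic tumours. The 7 brown adipocyte markers summed to 231 CPM and 54.3 CPM in these tumours, against 39.1 to 78.3 CPM in orthotopic tumours. Ucp1, the uncoupling protein of brown fat, was at 76.8 CPM in tumour 2 and 0.49 CPM in tumour 3, against 0.00, 0.07 and 0.47 CPM in orthotopic tumours. B cell markers (9 genes) summed to 2898 CPM and 20.1 CPM, and keratinocyte markers (8 genes) to 85.4 CPM and 795 CPM, in subcutaneous tumours 2 and 3. The 8 markers chosen for the ID8 line, epithelial and mesothelial genes, summed to 166 CPM and 741 CPM in subcutaneous tumours 2 and 3, against 683 to 1992 CPM in orthotopic tumours. These 8 summed to 2371 CPM in the line itself, but also to 1229 CPM in healthy ovary and 1421 CPM in healthy intestine. Their sum is therefore not particular to ID8 cells and does not measure ID8 content. The 8 skeletal muscle markers summed to 45.5 CPM and 14.7 CPM in subcutaneous tumours, against 3.27, 632 and 1.82 CPM in orthotopic tumours 1 to 3. No adipocyte, brown adipocyte, B cell, keratinocyte or ID8 line marker was at 0 in either subcutaneous library, 1 skeletal muscle marker was at 0 in each, and the part of these tissues in the mitochondrial share was not tested. In the ascites libraries the macrophage values above stand beside the low shares: first tap 2 had both the lowest mitochondrial share and the highest macrophage sum, 9586 CPM. The 8 ID8 line markers summed to 1885 to 3711 CPM in the second tap and 422 to 5864 CPM in the first. In orthotopic tumours they summed to 683 to 1992 CPM, and the range of each tap overlapped this. Other lists were lower in ascites. The 8 endothelial markers summed to 28.0 to 58.2 CPM in the second tap and 28.6 to 52.5 CPM in the first, against 293 to 519 CPM in orthotopic tumours. The 8 fibroblast markers summed to 494 to 825 CPM and 172 to 963 CPM in these taps, against 2005 to 4361 CPM, and the 6 smooth muscle markers to 15.4 to 33.7 CPM and 18.2 to 24.8 CPM, against 84.1 to 160 CPM. In edgeR, 5 and 6 of 8 endothelial, 1 and 4 of 8 fibroblast and 1 and 1 of 6 smooth muscle markers passed as lower in the second and first tap against orthotopic tumours, and 5 and 5 of 9 macrophage markers as higher. Of all genes tested, 0.578% and 0.891% passed as lower in the second and first tap, and 0.516% and 0.688% as higher. The part of these cell types in the mitochondrial share was not tested.

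Nearly all mitochondrial counts were mRNA, from 99.8% of them in second tap 1 to 99.97% in orthotopic tumour 2. Within the mRNAs the genome split into 7 abundant genes and a run of 6 low ones. In CPM of the raw library total per kilobase, mt-Nd1, mt-Nd2, mt-Co1, mt-Nd4, mt-Nd5, mt-Nd6 and mt-Cytb lay between 823 and 33549 in every library. The levels of mt-Co2, mt-Atp8, mt-Atp6, mt-Co3, mt-Nd3 and mt-Nd4l lay between 2.00 and 189 CPM per kilobase, so that no value of the low genes reached any of the abundant ones. The 6 low genes follow one another in the genome, between mt-Co1 and mt-Nd4. Together they held 0.137% to 0.316% of mitochondrial counts, with a median of 0.225%.

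The low genes coincided with the stretch that is annotated in the nucleus. Of all windows of 50 bases in each gene, the share found also in an annotated nuclear transcript was 100% for mt-Co2, 99.5% for mt-Atp6, 99.9% for mt-Co3, 98.0% for mt-Nd3 and 98.8% for mt-Nd4l. It was 62.2% for mt-Nd4, 51.1% for mt-Co1, 8.19% for mt-Nd2 and 7.61% for mt-Nd5, and 0 for mt-Nd1, mt-Nd6, mt-Cytb and mt-Rnr1. For mt-Atp8 it was also 0 although its level was low, and mt-Atp8 lies between mt-Co2 and mt-Atp6, whose copies Gm28661 and Gm10925 are both on chromosome 1. Only annotated transcripts were searched, not the nuclear genome. How the authors' counting treated reads that match more than 1 place is not given in the sources used here, and its part in these low levels was not tested.

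**Figure D2:**
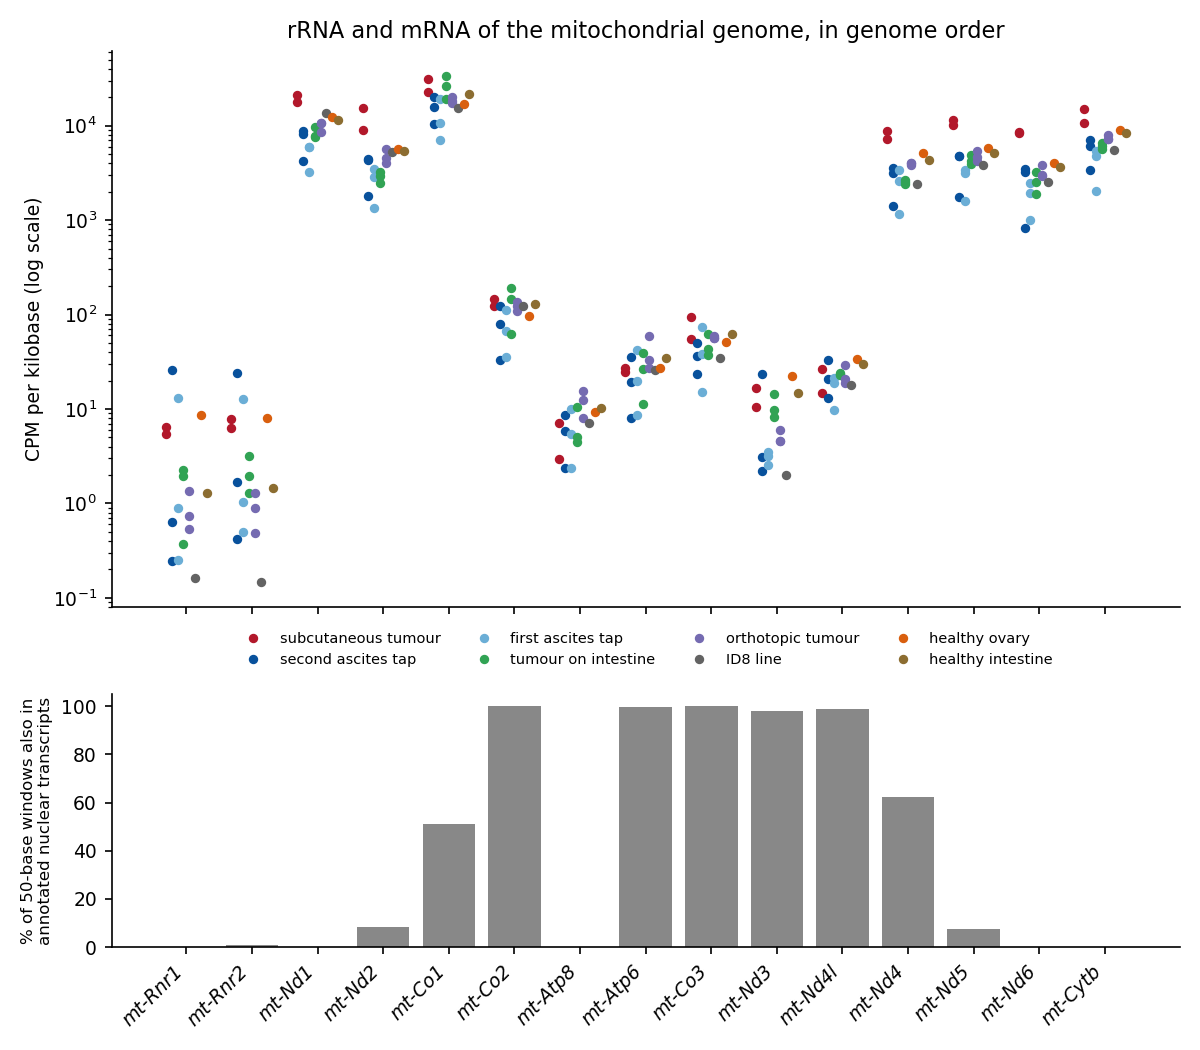
Level of each rRNA and mRNA gene in CPM per kilobase on a log scale (top, 1 point per library, coloured by group) and the percentage of its 50-base windows that also occur in an annotated nuclear transcript (bottom), in the order of the mitochondrial genome. The 6 genes from mt-Co2 to mt-Nd4l lie between 2.00 and 189 CPM per kilobase in all 17 libraries, and 5 of them have 98.0% to 100% of their windows in nuclear transcripts.

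Counts were also assigned to the nuclear copies. Over the 17 libraries Gm28661 held 39016 counts beside 35880 for mt-Co2, Gm10925 held 19007 beside 9577 for mt-Atp6, Gm28437 held 12760 beside 19248 for mt-Co3, and Gm10222 held 3723 beside 3324 for mt-Nd4l. Each of these copies is identical to its gene over the aligned bases, so reads within them cannot be told apart by sequence. Added together, mt-Co2 and its copy reached 223 CPM per kilobase over all libraries, against 18694 CPM per kilobase for mt-Co1 and its copy. Reads left uncounted because they match both places, if any, are not in these sums. For mt-Co1 and mt-Nd4, which are matched in part by Gm29216 and Gm28439, the copies held 0.104% and 0.502% of the paired counts.

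The split between gene and copy had its widest range over the libraries for mt-Nd3. Gm28437 took 34.5% to 46.8% of the counts summed with mt-Co3, Gm10222 34.7% to 63.1% of those with mt-Nd4l and Gm10925 55.7% to 88.0% of those with mt-Atp6. Gm28661 took 25.7% to 53.3% of those with mt-Co2 in 16 libraries, and 88.1% in healthy intestine, where it had 16420 counts. Gm28438, the copy that differs from mt-Nd3 at T3C, took 34.7% and 68.4% in subcutaneous tumours 2 and 3. It took 73.5%, 93.4% and 86.7% in the second tap, and 93.8%, 59.7% and 94.1% in the first tap. In tumours on the intestine it took 17.8%, 34.2% and 58.6%, and in orthotopic tumours 85.6%, 74.9% and 85.1%. The ID8 line stood at 93.8%, healthy ovary at 16.5% and healthy intestine at 23.1%. The copy thus held most of the paired counts in the line, in orthotopic tumours and in ascites, and a minority of them in both healthy tissues, in tumours on the intestine 1 and 2 and in subcutaneous tumour 2. The tumours on the intestine and the orthotopic tumours did not overlap, at 36.9% ± 20.5 and 81.9% ± 6.07 (SD, n = 3 each). This ratio was singled out after its values were seen and carries no test. The counts behind it were low, from 13 to 689 for Gm28438 and from 19 to 283 for mt-Nd3.

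Among the abundant genes mt-Co1 led. It was the gene with the most counts of any in 15 of 17 libraries, the exceptions being subcutaneous tumour 2 and first tap 2. It made up 34.8% and 32.9% of mitochondrial counts in subcutaneous tumours, 39.9%, 47.5% and 50.9% in the second tap and 52.3%, 47.7% and 39.4% in the first tap. In tumours on the intestine it made up 62.5%, 58.9% and 47.6%, and in orthotopic tumours 39.9%, 41.7% and 45.03%. The line had 39.3%, healthy ovary 35.6% and healthy intestine 43.1%. As a share within the set, mt-Co1 was thus lowest in the subcutaneous tumours. Its highest group mean was on the intestine, where every library lay above every orthotopic one. Second tap 2, second tap 3, first tap 1 and first tap 2 also lay above every orthotopic tumour. Of these, all but second tap 2 lay above tumour on the intestine 3 as well.

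The mt-Nd2 and mt-Nd4 mRNAs, both for complex I subunits, took small shares in the tumours on the intestine. The share of mt-Nd2 was 11.5% and 8.80% in subcutaneous tumours, 3.06%, 4.40% and 5.31% in tumours on the intestine, and 8.41%, 7.45% and 6.08% in orthotopic tumours. For mt-Nd4 it was 8.64% and 9.44% in subcutaneous tumours, 4.24%, 4.79% and 5.82% on the intestine, and 8.03%, 8.70% and 7.58% in orthotopic tumours. In both genes the tumours on the intestine lay below all orthotopic tumours. The mt-Nd4 share was 5.51% in the line, within the range of the tumours on the intestine, and 9.46% in healthy ovary, above both subcutaneous tumours. These are shares of 1 total, so a high mt-Co1 share leaves less for every other gene. mt-Nd1 took 21.5% of mitochondrial counts in the ID8 line, against 8.82% to 15.8% in the other 16 libraries. mt-Nd5 took 10.1% to 17.4%, mt-Cytb 8.37% to 13.95% and mt-Nd6 1.36% to 4.04% over all libraries.

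**Figure D3:**
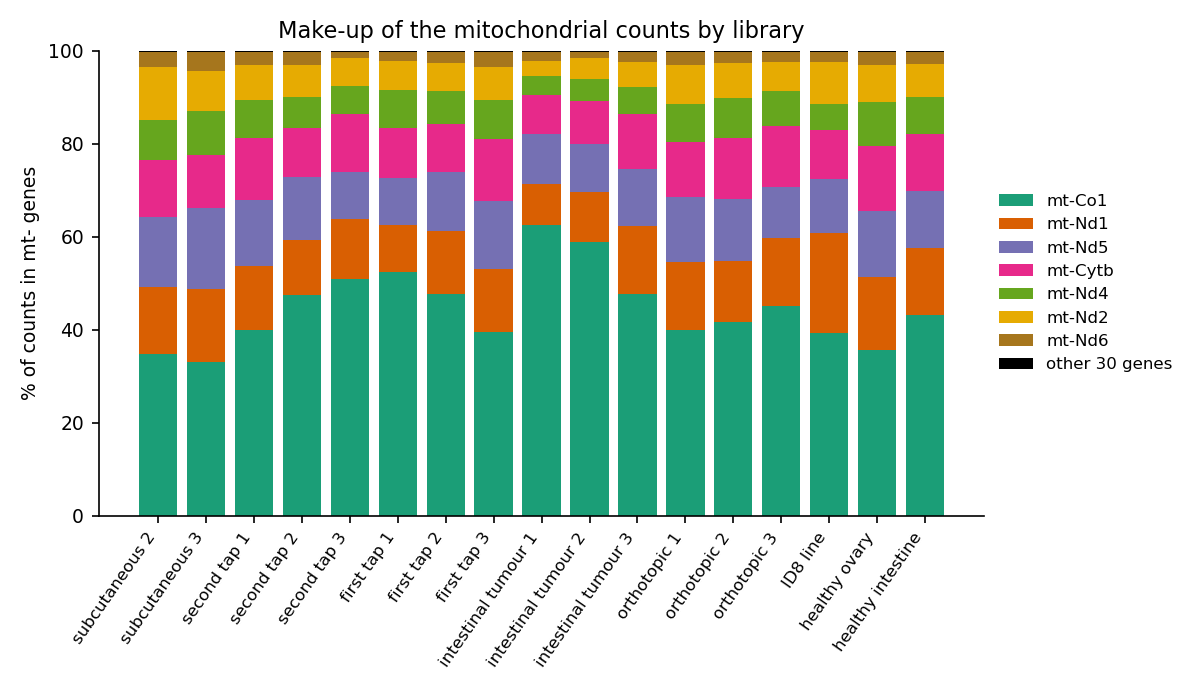
Percentage of each library's mitochondrial counts held by the 7 abundant mRNAs, stacked, with the other 30 mt- genes in black at the top. mt-Co1 holds 47.6% to 62.5% in tumours on the intestine, 39.9% to 45.03% in orthotopic tumours and 32.9% to 34.8% in subcutaneous tumours.

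The 2 rRNAs, which form the mitochondrial ribosome, were scarce in these libraries. Their summed level was 17.6 and 16.2 CPM of the raw total in subcutaneous tumours. It was 63.3, 0.901 and 3.28 CPM in the second tap and 1.03, 2.48 and 32.4 CPM in the first tap. Tumours on the intestine had 7.15, 4.91 and 2.39 CPM and orthotopic tumours 3.32, 1.28 and 2.13 CPM. The line had 0.386 CPM, healthy ovary 21.1 CPM and healthy intestine 3.55 CPM. Second tap 1 and first tap 3, the highest, and subcutaneous tumour 3 are the libraries with the most genes detected, while subcutaneous tumour 2 and healthy ovary were as high as subcutaneous tumour 3 with 24003 and 26838 genes detected. The labels describe total RNA, and whether ribosomal RNA was removed is not given in the sources used here. Its removal, and the part of library quality in these values, were not tested.

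The ratio of the rRNAs did not pass a test between groups. mt-Rnr2 had 1.5 to 5.78 times the counts of mt-Rnr1 over the 17 libraries. Over the 14 libraries of the 5 replicated groups, the log2 ratio gave p = 0.627 in an exact permutation test of the variance between groups, with all 1401400 assignments counted. This ratio was 1 of 3 tested in the same way, and the Benjamini-Hochberg adjusted permutation p was 0.627 for each. The ratio of mt-Nd6 to its neighbour mt-Nd5, which is read from the opposite strand, was 0.213 and 0.232 in subcutaneous tumours, 0.132 to 0.204 in the second tap and 0.176 to 0.207 in the first tap. It was 0.138 to 0.186 in tumours on the intestine and 0.184 to 0.206 in orthotopic tumours, with an exact permutation p = 0.229 over the 5 groups. Without second tap 3, whose ratio of 0.132 was the lowest, the exact permutation p was 0.0492, not adjusted over the 3 ratios. The ratio of mt-Atp8 to mt-Atp6, which are translated from 1 shared messenger, was 0.0361 to 0.137 over all libraries, with an exact permutation p = 0.563.

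The tRNAs, which carry amino acids to the mitochondrial ribosome, were almost entirely light-strand genes. The 8 light-strand tRNAs held 16486 counts over all libraries and the 14 heavy-strand tRNAs 51. mt-Tp, the proline tRNA, held 90.8% of all tRNA counts. The 3 tRNAs that could be tested are printed as DNA, 5′ to 3′, from the GRCm38 transcripts, with the anticodon in capitals.
mt-Tp: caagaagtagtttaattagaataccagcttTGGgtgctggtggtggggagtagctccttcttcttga
mt-Tc: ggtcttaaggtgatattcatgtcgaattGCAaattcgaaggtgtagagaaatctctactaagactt
mt-Tn: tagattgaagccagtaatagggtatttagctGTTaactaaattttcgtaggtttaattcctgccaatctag
These 3 tRNAs, for proline, cysteine and asparagine, held 15012, 872 and 476 counts. The other 13 tRNAs with a count held 177 together, led by mt-Ty with 63 and mt-Te with 41. No count was found for mt-Tf, mt-Td, mt-Tk, mt-Tg, mt-Tr and mt-Ts2, all of them heavy-strand genes, which allows up to 0.0771 to 0.249 CPM per library from a floor of 3 counts. The strand setting of the authors' counting is not given in the sources used here, so reads of a light-strand tRNA and of an uncut precursor from the other strand cannot be told apart.

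Scaled by TMM, mt-Tp stood at 79.2 and 29.7 CPM in subcutaneous tumours, 34.8, 18.1 and 8.74 CPM in the second tap and 16.1, 6.95 and 19.4 CPM in the first tap. It stood at 60.7, 74.1 and 27.5 CPM on the intestine and at 18.2, 12.8 and 20.8 CPM in orthotopic tumours. The line had 28.4 CPM, healthy ovary 46.3 CPM and healthy intestine 69.0 CPM. Both subcutaneous tumours and all tumours on the intestine lay above all orthotopic tumours. mt-Tc stood at 0.83 to 3.78 CPM and mt-Tn at 0.42 to 2.63 CPM over all libraries.

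**Figure D4:**
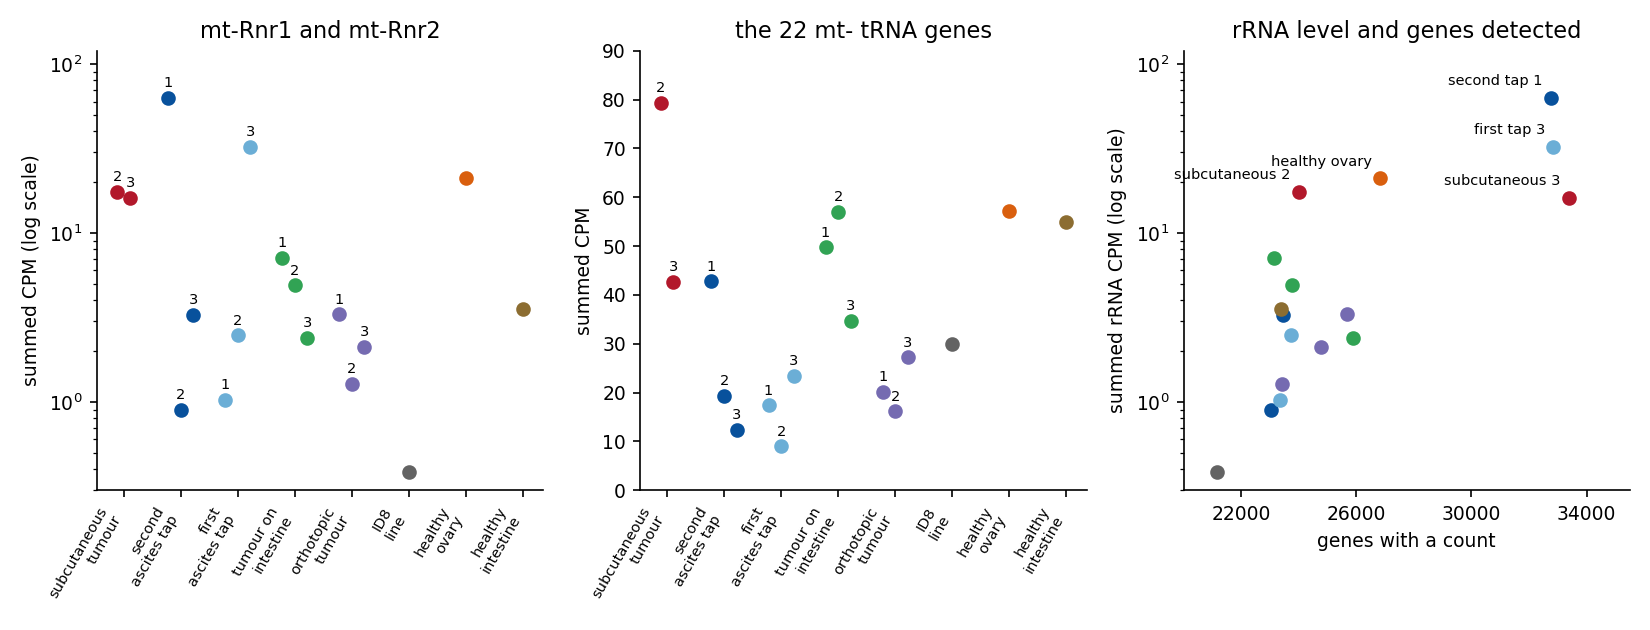
Summed CPM of both rRNAs (left, log scale) and of all tRNAs (middle) by group, and summed rRNA CPM against the number of genes with a count (right, log scale, same colours). Second tap 1 and first tap 3 are highest for rRNA, at 63.3 and 32.4 CPM, and are 2 of the 3 libraries with the most genes detected; subcutaneous tumour 2 is highest for tRNA, at 79.4 CPM.

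The comparisons between sites were tested in 1 model over all 22671 genes that passed the filter, with edgeR's quasi-likelihood test on the counts and Benjamini-Hochberg adjustment over all of these genes, at an adjusted p of 0.05. No mitochondrial gene passed in any of the 10 comparisons. The 4 comparisons against orthotopic tumours share those 3 control libraries, as the 3 comparisons against the line share 1, so their values are given side by side and not as independent results.

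In subcutaneous against orthotopic tumours, 0 of 18 tested members passed in edgeR and 0 in DESeq2, while 3 had an unadjusted edgeR p under 0.05. Of all genes tested, 0.0132% passed and 20.7% had an unadjusted p under 0.05. The 13 mRNAs had a median log2 fold change of 0.75, beside 0.25 for all genes tested, and 10 of the 13 were positive. Without subcutaneous tumour 2 this median was 0.12 beside 0.02 for all genes, with 7 of 13 positive, and without subcutaneous tumour 3 it was 1.03 beside −0.08. With no filter on low counts it was 0.70 beside 0.63, and with the nuclear copies added 0.45 beside 0.15. mt-Nd2 stood at 16915 and 6911 CPM in subcutaneous tumours, against 5933, 4318 and 3755 CPM in orthotopic tumours, with a log2 fold change of 1.35 ± 0.57 (SE, edgeR adjusted p = 0.210). mt-Nd6, the light-strand complex I gene, stood at 4694 and 3175 CPM in subcutaneous tumours, against 2026, 1416 and 1357 CPM in orthotopic tumours (1.298 ± 0.59, edgeR adjusted p = 0.236). For both genes the groups did not overlap, yet the difference did not pass. The log2 fold change of mt-Tp was 1.66 ± 0.63 (edgeR adjusted p = 0.175). Without subcutaneous tumour 2 the estimates were 0.54 for mt-Nd2 and 0.76 for mt-Tp.

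mt-Co1, the main catalytic subunit of complex IV, stood at 51097 and 25873 CPM in subcutaneous tumours, against 28151, 24148 and 27827 CPM in orthotopic tumours, so that the groups overlapped (log2 fold change 0.53 ± 0.60, edgeR adjusted p = 0.618). Without subcutaneous tumour 2 this estimate was −0.073. mt-Atp8 went the other way, at 1.52 and 0.44 CPM in subcutaneous tumours, against 1.66, 2.29 and 2.84 CPM in orthotopic tumours (−1.20 ± 0.81, edgeR adjusted p = 0.395), and the estimate was −2.38 without subcutaneous tumour 2 and −0.72 without subcutaneous tumour 3. mt-Rnr1 and mt-Rnr2 had log2 fold changes of 2.63 ± 1.71 and 2.92 ± 1.45 (edgeR adjusted p = 0.377 and 0.269). The rRNA levels did not overlap between these groups.

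In the ascites taps the mRNAs lay on the low side of orthotopic tumours. In the first tap all 13 mRNAs had a negative log2 fold change against orthotopic tumours, with a median of −0.71 beside 0.18 for all genes tested. That median was −1.18 without first tap 1, −0.58 without first tap 2 and −0.83 without first tap 3. It was −0.62, −0.91 or −0.83 when the first, the second or the third orthotopic tumour was left out. With the nuclear copies added it was −0.78, beside 0.09 for all genes, and 12 of 13 were negative. In the second tap 12 of 13 were negative, with a median of −0.39 beside 0.13 for all genes. This median was −0.60 without second tap 1, −0.76 without second tap 2 and −0.28 without second tap 3 (11 of 13 negative). It was −0.33, −0.59 or −0.62 when the first, the second or the third orthotopic tumour was left out. Against orthotopic tumours 0 of 18 members passed in edgeR and 0 in DESeq2 in either tap, and 1 member in each had an unadjusted edgeR p under 0.05. Of all genes tested, 1.09% passed in the second tap (0.516% higher, 0.578% lower) and 1.58% in the first (0.688% higher, 0.891% lower), and 16.3% and 18.9% had an unadjusted p under 0.05.

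The member with the smallest p in the first tap was mt-Nd1. It stood at 5959, 2852 and 5309 CPM there, against 10374, 7539 and 9036 CPM in orthotopic tumours, without overlap (log2 fold change −0.93 ± 0.43, edgeR adjusted p = 0.263). In the second tap it was mt-Rnr2, at 34.4, 0.74 and 2.42 CPM, against 2.05, 0.70 and 1.26 CPM in orthotopic tumours (3.22 ± 1.39, edgeR adjusted p = 0.277). That estimate rested on second tap 1: without it the log2 fold change was 0.13. mt-Rnr1 gave 3.26 ± 1.65 in the second tap (edgeR adjusted p = 0.356) and −1.09 without second tap 1. In the first tap mt-Rnr1 and mt-Rnr2 gave 2.39 ± 1.60 and 2.39 ± 1.35 (edgeR adjusted p = 0.448 and 0.364), and −0.68 and −0.26 without first tap 3. Second tap 1 and first tap 3 are the libraries with the most genes detected among the ascites samples.

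Between the taps, 0 of 18 members passed in edgeR or DESeq2 and 0 had an unadjusted edgeR p under 0.05, while 0.0% of all genes passed and 0.64% had an unadjusted p under 0.05. The median over the 13 mRNAs was 0.40 for the second tap over the first, beside −0.04 for all genes, with 10 of 13 positive. It moved with single libraries, to 0.06 without second tap 2 (7 of 13 positive), 0.10 without first tap 2 (8 of 13 positive), 0.22 without second tap 1, 0.63 without second tap 3 and 0.64 without first tap 1.

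In tumours on the intestine against orthotopic tumours, 0 of 18 members passed in edgeR, although 15.5% of all genes did. A single member had an unadjusted edgeR p under 0.05, beside 31.6% of all genes. The median over the 13 mRNAs was 0.07, beside 0.06 for all genes, and it was −0.27 beside −0.23 with libraries scaled by their totals only. With any 1 library of either group left out it lay between −0.06 and 0.17, on both sides of 0. That member was mt-Tp, with a log2 fold change of 1.64 ± 0.58 (edgeR adjusted p = 0.0759). It was called by DESeq2 at an adjusted p of 0.0192, and by edgeR at 0.0492 without tumour on the intestine 3, the lowest of that group. Over all alternatives its adjusted p ran from 0.0192 to 0.242. mt-Co1 stood at 65473, 58407 and 27126 CPM on the intestine, against 28151, 24148 and 27827 CPM in orthotopic tumours (0.91 ± 0.54, edgeR adjusted p = 0.273), and its log2 fold change was 0.52 with libraries scaled by their totals only. Tumour on the intestine 3 overlapped the orthotopic tumours in mt-Co1. It also had the lowest intestinal epithelium sum of its group, at 9575 CPM, and the part of intestinal tissue in these values was not tested.

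**Figure D5:**
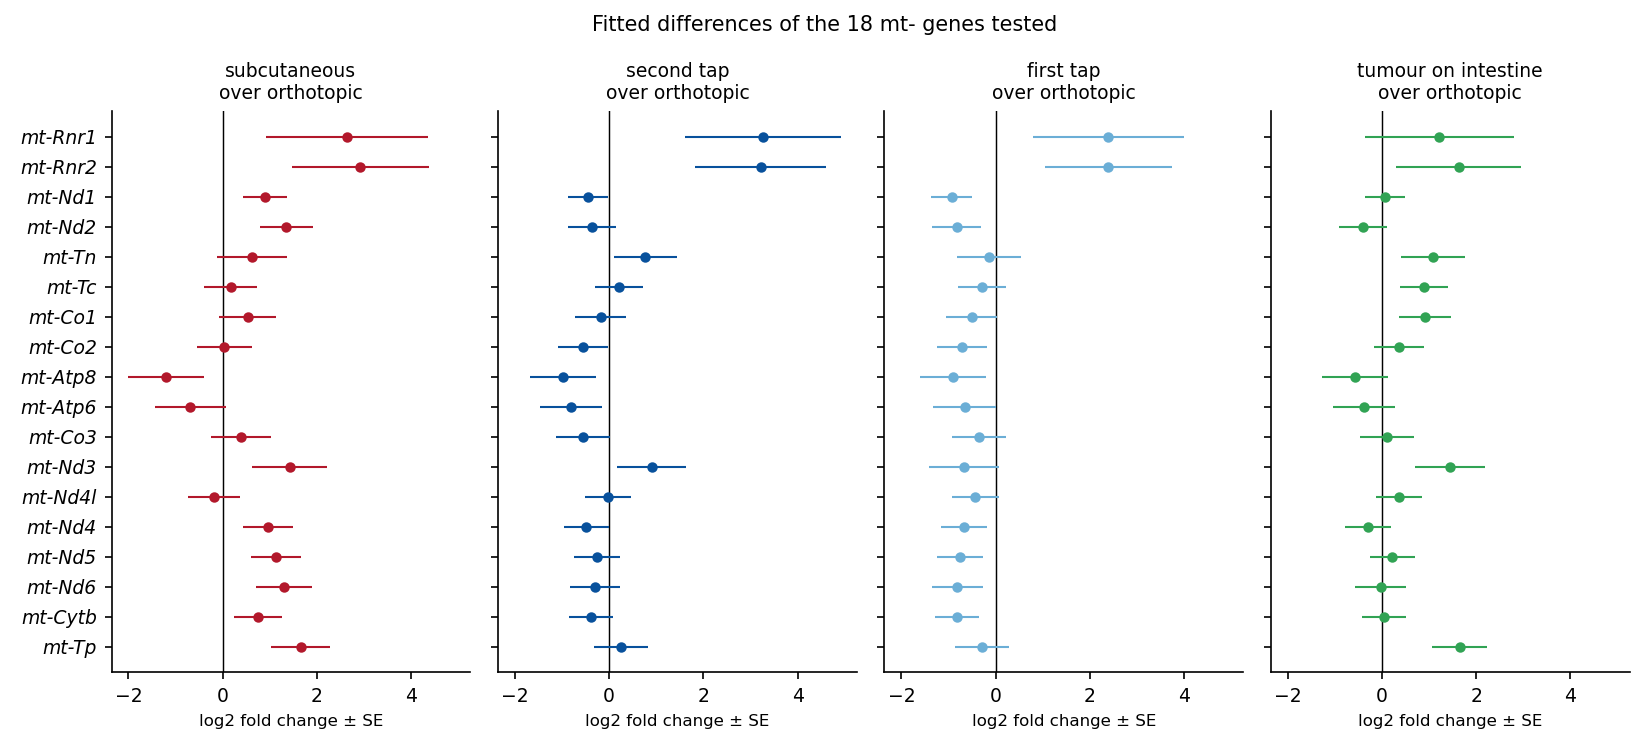
Log2 fold change ± SE of the 18 tested members, in genome order, for subcutaneous tumours, the second tap, the first tap and tumours on the intestine, each over orthotopic tumours. All 13 mRNAs are negative in the first tap, the rRNAs have the widest errors (SE 1.33 to 1.71), and no member passes at an adjusted p of 0.05.

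The remaining comparisons each have a single library on 1 side, which is taken to vary as the replicated groups do, without a check of its own. Against the ID8 line, 0 of 18 members passed in edgeR in subcutaneous tumours, the first tap or orthotopic tumours, beside 9.49%, 4.22% and 3.2% of all genes. Of all genes, 6.25% passed as higher and 3.23% as lower in subcutaneous tumours, 3.11% and 1.11% in the first tap, and 2.37% and 0.834% in orthotopic tumours. The median over the 13 mRNAs was 0.97 in subcutaneous tumours, −0.38 in the first tap and 0.26 in orthotopic tumours, beside 0.60, 0.55 and 0.24 for all genes. Without subcutaneous tumour 2 the 0.97 became 0.23, below the 0.47 of all genes, and with no filter it was 0.92, below 1.43. Without first tap 2 the −0.38 became −0.12, with 6 of 13 positive, and without first tap 1 it became −0.85. Without orthotopic tumour 1 the 0.26 became 0.09, below the 0.19 of all genes. With the replicate number as a block the medians were 1.34, −0.18 and 0.56. Members with an unadjusted edgeR p under 0.05 numbered 0, 1 and 0, beside 29.1%, 20.6% and 20.9% of all genes. The 1 member was mt-Nd1 in the first tap, at 5959, 2852 and 5309 CPM, against 13385 CPM in the line (−1.51 ± 0.56, edgeR adjusted p = 0.148). DESeq2 called this gene at an adjusted p of 0.0251, and over all alternatives its adjusted p ran from 0.0251 to 0.499. DESeq2 also called mt-Rnr2 in the first tap and in subcutaneous tumours against the line, where mt-Rnr2 had 9 counts. In orthotopic tumours against the line DESeq2 called 0.

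Against healthy ovary, 0 of 18 members passed in orthotopic tumours in edgeR or DESeq2, beside 0.6% of all genes (0.00882% higher, 0.591% lower). The median over the 13 mRNAs was −0.21, beside −0.07 for all genes. It turned positive with the nuclear copies added (0.08) and with the replicate number as a block (0.06, 10 of 13 positive), and with the first, the second or the third orthotopic tumour left out it was −0.34, −0.08 and −0.04. The 1 member with an unadjusted p under 0.05, beside 11.2% of all genes, was mt-Nd3. It stood at 1.61, 1.46 and 1.87 CPM in orthotopic tumours, against 7.03 CPM in healthy ovary (−2.09 ± 0.94, edgeR adjusted p = 0.436). With the counts of Gm28438 added to it, the log2 fold change was 0.35, the opposite sign. With the replicate number as a block it was −1.33, and over all alternatives its adjusted p ran from 0.0913 to 0.936. Against healthy intestine, 0 of 18 members passed in tumours on the intestine in edgeR or DESeq2 and 0 had an unadjusted edgeR p under 0.05, beside 0.0% and 2.58% of all genes. The median over the 13 mRNAs was −0.58, beside 0.02 for all genes, with 12 of 13 negative, and it was −0.37 without tumour on the intestine 3 and −0.35 with the replicate number as a block.

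The nuclear genes that work with the mitochondrial genome were taken from lists of respiratory complex subunits, mitochondrial ribosomal proteins, aminoacyl-tRNA synthetases, RNA processing factors, replication and transcription factors, biogenesis regulators and turnover genes. None of these genes passed in edgeR in subcutaneous tumours or in either tap against orthotopic tumours. Few genes of any kind did: 0.0132% of all genes in subcutaneous tumours, 1.09% in the second tap and 1.58% in the first. In subcutaneous against orthotopic tumours the median log2 fold change was 0.04 over 36 complex I genes, 0.42 over 4 complex II genes, 0.48 over 9 complex III genes, −0.01 over 10 complex IV genes and 0.06 over 15 ATP synthase genes. It was −0.28 over 76 mitochondrial ribosomal protein genes and 0.11 over 15 replication and transcription genes, beside 0.25 for all genes. The difference between these medians and the 0.75 of the mitochondrial mRNAs, which rests on subcutaneous tumour 2, was not tested.

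In tumours on the intestine against orthotopic tumours, 7 of 74 nuclear respiratory genes passed on the higher side, or 9.46%, close to the 10.4% of all genes that did, and 0 passed on the lower side, where 5.13% of all genes did. The 7 were 1 of 36 complex I genes, 2 of 4 complex II genes, 1 of 9 complex III genes, 1 of 10 complex IV genes and 2 of 15 ATP synthase genes. Uqcrc1, a core subunit of complex III, rose to 208, 529 and 125 CPM on the intestine, against 71.4, 63.3 and 64.5 CPM in orthotopic tumours (log2 fold change 2.11 ± 0.54, edgeR adjusted p = 0.0232). On the log2 scale Cox5a of complex IV rose by 1.90 ± 0.50, Sdhb and Sdhd of complex II by 1.83 ± 0.51 and 1.67 ± 0.45, and Ndufs1 of complex I by 1.33 ± 0.39 (edgeR adjusted p = 0.0256, 0.0318, 0.0269 and 0.0392). Atp5g3 and Atp5o of the ATP synthase rose by 1.5 ± 0.40 and 1.51 ± 0.45 (edgeR adjusted p = 0.0266 and 0.0412).

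The other lists stand beside the same 10.4% of all genes that passed as higher and 5.13% as lower in this comparison. Of 12 regulators of mitochondrial biogenesis, 3 rose on the intestine. Ppargc1b, a transcriptional coactivator, stood at 84.5, 88.6 and 22.6 CPM, against 8.46, 6.15 and 7.87 CPM in orthotopic tumours (3.12 ± 0.70, edgeR adjusted p = 0.0134). Its partner Esrra, a nuclear receptor, rose by 2.76 ± 0.38 and Ppard by 1.77 ± 0.38 (edgeR adjusted p = 0.00107 and 0.0105). Lars2 and Mars2, which charge mitochondrial leucine and methionine tRNAs, rose by 1.77 ± 0.26 and 1.17 ± 0.32 (edgeR adjusted p = 0.00147 and 0.0295). They were 2 of 19 synthetases, close to the share of all genes that passed as higher. Among 76 mitochondrial ribosomal protein genes 2 fell, Mrps11 and Mrpl33, and among 26 RNA processing genes 2 fell, Trit1 and Ptcd3, with log2 fold changes of −1.55, −0.98, −1.01 and −1.02. The 2 of 76 lay below the share of all genes that passed as lower. Of 10 turnover genes, Mfn2, which fuses mitochondria, rose by 1.57 ± 0.49, and the mitophagy receptors Fundc1 and Bnip3l fell, with log2 fold changes of −0.98 and −0.88. None of 15 replication and transcription genes passed. All 9 intestinal epithelium markers also rose in this comparison, and the part of intestinal tissue in these changes was not tested. In tumours on the intestine against healthy intestine 0 of these genes passed in edgeR. There 0.0% of all genes passed, so this count says nothing about these genes.

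Against the ID8 line, the calls among nuclear partners stand beside the shares of all genes given above. In subcutaneous tumours they were 1 of 36 complex I genes, 1 of 26 RNA processing genes, 2 of 19 synthetases, 1 of 12 regulators and 1 of 76 ribosomal protein genes, all lower, and 3 of 10 turnover genes, 2 higher and 1 lower. In the first tap they were 1 of 19 synthetases and 1 of 76 ribosomal protein genes, both lower, and 1 of 10 turnover genes, higher. In orthotopic tumours they were 1 of 19 synthetases, lower, and 1 of 10 turnover genes, higher. Gars, the glycyl-tRNA synthetase of cytosol and mitochondria, fell in subcutaneous tumours, the first tap and orthotopic tumours, with log2 fold changes of −2.69, −1.92 and −2.01. Kars, the lysyl-tRNA synthetase, fell in subcutaneous tumours (−2.17). Pink1, a kinase of mitophagy, rose in subcutaneous and orthotopic tumours, by 2.65 ± 0.54 and 2.50 ± 0.52 (edgeR adjusted p = 0.0164 and 0.0270). In subcutaneous tumours Ndufs8 of complex I, Tbrg4, which binds mitochondrial mRNA, the coactivator Pprc1, the fission factor Fis1 and Mrpl19 fell as well, with log2 fold changes of −1.77, −1.84, −1.83, −1.54 and −1.76. Park2, the ubiquitin ligase of mitophagy, passed on the higher side in subcutaneous tumours and the first tap. In the first tap Mrpl42 fell (−1.59).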

How the data were processed

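Trizol RNA went into strand-marking NEBNext libraries for total RNA, per the labels' protocols. Among tools, the submitters' notes on processing list HISAT, HISAT2, featureCounts and DESeq2, with versions not given in the sources used here, and both hg19 and mm39, so no coordinates are printed. The deposited values are the authors' whole-number read counts per Ensembl gene, with no rows of unassigned reads. The 2 deposited tables were identical, and 1 column that matched no sample in the labels was not used.

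Libraries were grouped by their labels. Counts were fitted in R 4.3.3 with edgeR 4.0.16 (TMM scaling, robust quasi-likelihood, genes over 0.5 CPM in at least 2 libraries, 17 libraries, 9 residual degrees of freedom) and, as an alternative, DESeq2 1.42.0, and the fit was tested on simulated data. Shares, levels within the set and CPM per kilobase use raw library totals. CPM of markers and CPM given with fold changes are scaled by TMM over the tested genes. A log2 fold change is the first group named over the second. Gene lengths, copies and sequences come from GENCODE transcripts of GRCm38, in which all 37 symbols matched. The members and gene lists were chosen with earlier results of these data known. Every mitochondrial gene with a count is described; fold changes are given for members that passed, for mt-Rnr1, mt-Rnr2, mt-Co1, mt-Nd6 and mt-Atp8 where described, and, chosen after their values were seen, for those with an unadjusted p under 0.05. Of each nuclear list up to 4 genes that passed are named, by smallest p. Replicate numbers were not used to pair the libraries in the main fit, as the labels do not say that they mark animals. Alternatives were other scalings, no filter, fewer groups, a replicate block and each replicate left out.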

Additional observations from a re-analysis of the deposited data

How the results depend on the processing

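The count of 0 mitochondrial genes that passed was kept in all 10 comparisons under the other scalings, without a filter, with fewer groups in the fit and with each replicate left out, except that 1 gene (mt-Tp) passed in tumours on the intestine against orthotopic tumours without tumour on the intestine 3. DESeq2's Wald test called 1 gene in that comparison, 1 in subcutaneous tumours against the line and 2 in the first tap against the line, and 0 in the other 7. The replicate number as a block left 0 members passing in each comparison. Same-numbered libraries deviated together with correlations from −0.549 to 0.419, and the best correlation was with the own number in 28 of 52 checks. How many such matches unpaired libraries would give was not worked out. Whether same-numbered libraries share an animal is not given in the sources used here. Among the mitochondrial log2 fold changes given with an SE, 5 turned their sign with 1 library left out or with the nuclear copy added: mt-Nd3 in orthotopic tumours against healthy ovary was 0.35 with the nuclear copy added, mt-Co1 in subcutaneous against orthotopic tumours ran from −0.073 without subcutaneous tumour 2 to 0.80, mt-Rnr1 and mt-Rnr2 in the first tap against orthotopic tumours ran from −0.68 and −0.26 without first tap 3 to 2.93 and 2.84, and mt-Rnr1 in the second tap ran from −1.09 without second tap 1 to 3.80. The cause was not tested.

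The shares counted over mRNA alone stayed within the spread of each replicated group. TMM-scaled totals were an alternative chosen after seeing the data. With them the mean shares of all mt- genes were 11.3% in subcutaneous tumours, 5.19% in the second tap and 3.98% in the first tap. Tumours on the intestine had 8.70%, orthotopic tumours 6.34%, the line 6.21%, healthy ovary 6.64% and healthy intestine 10.0%. The exact permutation p of the mt-Nd6 to mt-Nd5 ratio ran from 0.0492 to 0.483 with 1 library left out. Depth limits mt-Atp8, mt-Nd3, the rRNAs and all tRNAs but mt-Tp, which had few counts.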
